A study of Mus musculus with 8 samples.

Results

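The data described here are 10 genes of vascular calcification and of bone and cartilage formation: *Runx2*, *Sox9*, *Bmp2*, *Bmp4*, *Alpl*, *Enpp1*, *Mgp*, *Ibsp*, *Comp* and *Chad*. They were chosen by symbol, as genes known from calcified vessels, bone or cartilage, out of 21859 genes with counts, and all 10 passed the filter on low counts that left 15077 genes for testing. RNA was sequenced from the whole aortas of 4 *ApoE*-/- mice, which lack apolipoprotein E and are prone to atherosclerosis, and of 4 wild-type (WT) mice. All 8 were males of the C57BL/6 background, 40 weeks old, kept on a normal (chow) diet, and each gave 1 library. No inducible allele or treatment was involved, and the knockout is present in every cell. Whole aorta mixes smooth muscle, endothelium, adventitia, fat and, in lesions, immune cells, so fewer cells of a type and less RNA per cell cannot be told apart.

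Calcification of an artery shares many steps with bone formation. Smooth muscle cells of a diseased wall can take up the transcription factors of osteoblasts (RUNX2) or of chondrocytes (SOX9), bone morphogenetic proteins promote that change, and mineral then grows or is held back by the balance of phosphate and pyrophosphate. Alkaline phosphatase (*Alpl*) breaks pyrophosphate down and ENPP1 makes it, matrix Gla protein (*Mgp*) is a mineralization inhibitor of the vessel wall, and bone sialoprotein (*Ibsp*), cartilage oligomeric matrix protein (*Comp*) and chondroadherin (*Chad*) are matrix proteins of bone or cartilage.

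Levels are given as CPM, the counts of a gene relative to the sum over all genes of its library after TMM scaling, for *ApoE*-/- replicates 1 to 4 and then WT replicates 1 to 4. A log2 fold change is *ApoE*-/- against WT from edgeR's quasi-likelihood test with its standard error (SE), and an adjusted p is that test's value after Benjamini-Hochberg adjustment over the 15077 genes. The targeted gene matched the labels: *Apoe* was at 14.7 to 36.3 CPM in the 4 *ApoE*-/- libraries and at 536 to 857 CPM in the 4 WT libraries, a log2 fold change of -4.83 (SE 0.37, adjusted p = 0.0141). The log2 fold change was -5.06 to -4.64 over 17 alternatives, while the adjusted p in edgeR was 0.0587 without *ApoE*-/- replicate 3, 0.0838 without WT replicate 2 and 0.0755 without WT replicate 4.

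The libraries held 23240995 to 23940156 gene counts in *ApoE*-/- mice and 18375898 to 21664598 in WT mice. *ApoE*-/- replicate 1 stood apart: across genes its log2 CPM correlated at 0.849 to 0.903 with the other 3 *ApoE*-/- libraries, against 0.979 to 0.989 among WT libraries. Its summed level of 12 contractile smooth muscle genes was 6124 CPM, against 15142 to 24581 CPM in the other *ApoE*-/- aortas and 13521 to 25031 CPM in WT, and it was the lowest of the 8 for all 12 genes. The summed level of 12 macrophage genes was 528 to 2682 CPM in *ApoE*-/- and 300 to 424 CPM in WT, and that of 9 cardiac muscle genes was 160 to 342 CPM against 414 to 717 CPM. No gene of these 3 lists was at 0 in every library. Values without replicate 1 or without replicate 3 are given beside the results whose call they change.

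None of the 10 genes differed between the genotypes at an adjusted p under 0.05, where 0.464% of all genes tested did (70 of 15077). At an unadjusted p under 0.05 there were 3, *Ibsp*, *Runx2* and *Sox9*, against 11.4% of all genes. DESeq2, run on the same counts as the alternative, called 1, *Ibsp*, against 4.29% of its 16803 genes, and gave no p for *Sox9* because a single library was an outlier. Of the 10 fitted log2 fold changes, 8 were above 0, with a median of 0.48, while 8747 of the 15077 genes tested were above 0 with a median of 0.05. No member had *ApoE*-/- and WT values that did not overlap, a separation that 8.71% of all genes showed.

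**Figure D1:**
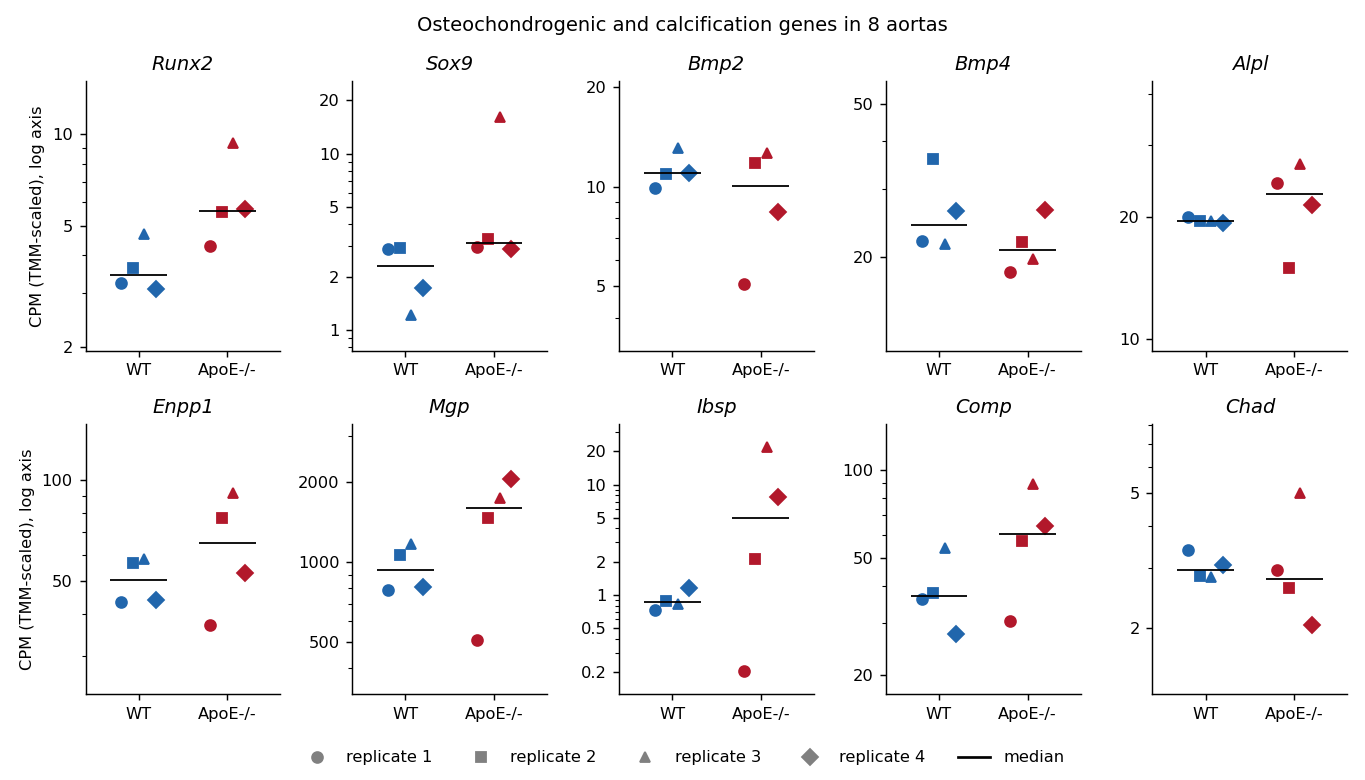
TMM-scaled CPM (log axis, a scale of its own for each gene) of the 10 genes in 4 WT (blue) and 4 ApoE-/- (red) aortas, with 1 symbol per replicate number and a line at each group's median. The red triangle, ApoE-/- replicate 3, is the highest of the 8 aortas in 7 panels, and the red circle, ApoE-/- replicate 1, is the lowest in 5.

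The 10 genes spread widely within the *ApoE*-/- group. Across all genes tested, too, *ApoE*-/- libraries correlated at 0.849 to 0.971 with each other, against 0.979 to 0.989 among WT libraries. *ApoE*-/- replicate 3 was the highest of the 8 libraries for 7 of the 10 (*Runx2*, *Sox9*, *Alpl*, *Enpp1*, *Ibsp*, *Comp* and *Chad*), against 14.3% of all genes, and the highest of the 4 *ApoE*-/- libraries for 8, against 19.6%. *ApoE*-/- replicate 1 was the lowest of the 8 for 5 of the 10, against 22.6% of all genes. These shares describe the list and were not tested.

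*Ibsp* showed the largest difference of the 10. Its gene lies on chromosome 5 from 104299171 to 104311469 on the plus strand (GRCm38, GENCODE M21), in a cluster of mineral-binding matrix proteins. The stretch from *Dmp1* to *Spp1* in this cluster covers 238 kb, with 124 kb between the end of *Ibsp* and the start of *Spp1*. *Spp1* encodes osteopontin, which binds mineral and is also made in quantity by macrophages. The 250 bases before a RefSeq start of *Ibsp* and of *Spp1* are shown, for *Spp1* the first of its 2 starts. They are shown because these 2 genes of the cluster carried the largest fitted changes among the bone matrix genes. In both, capitals mark the Runx core (TGTGGT, or ACCACA on the other strand) and the TATA box (TATAAA, or TTTATA on the other strand). The sequences are from RefSeq on GRCm38.p6, plus strand, chr5:104299037-104299286 for *Ibsp* and chr5:104434861-104435110 for *Spp1*. GENCODE M21 begins *Ibsp* further upstream, inside the window shown.
Ibsp: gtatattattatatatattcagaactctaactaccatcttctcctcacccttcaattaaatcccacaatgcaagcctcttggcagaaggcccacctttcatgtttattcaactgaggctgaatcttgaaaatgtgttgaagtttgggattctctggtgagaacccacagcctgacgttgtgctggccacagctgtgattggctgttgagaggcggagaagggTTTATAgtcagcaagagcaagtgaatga
Spp1: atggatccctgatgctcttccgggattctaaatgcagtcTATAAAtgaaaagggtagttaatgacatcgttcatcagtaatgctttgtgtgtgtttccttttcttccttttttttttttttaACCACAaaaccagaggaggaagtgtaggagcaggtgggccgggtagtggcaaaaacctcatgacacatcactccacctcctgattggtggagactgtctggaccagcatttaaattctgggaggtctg

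The *Ibsp* window held a TATA box on the other strand with its first base 28 bases before the start and no Runx core. The *Spp1* window held a Runx core on the other strand at -128 and a TATA box at -211, while the window of its other start, chr5:104435942-104436191, held neither. RefSeq windows were found for 6 of the 10 genes (7 windows, of which *Alpl* has 2). A Runx core stood in 2 of the 7, those of *Runx2* at -80 and *Enpp1* at -144, and in 14.05% of the 32851 windows of all genes. A TATA box stood in 3 of the 7 (*Ibsp*, *Chad* and 1 of the 2 *Alpl* windows), against 12.4% of all windows, and the core AACAAT of Sox factors (or ATTGTT) in none, against 9.42%. A match of letters is a description and not a binding site.

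*Ibsp* CPM were 0.203, 2.10, 22.0 and 7.77 in the *ApoE*-/- aortas and 0.734, 0.889, 0.831 and 1.15 in WT. Behind these stood 5, 48, 505 and 179 counts in *ApoE*-/- and 15 to 24 counts in WT. So 3 of the 4 *ApoE*-/- aortas were above every WT aorta while replicate 1 was below them all, and the 4 spanned a 108-fold range where WT spanned 1.56-fold. The log2 fold change was 3.14 (SE 1.11, 95% interval 0.59 to 5.70, adjusted p in edgeR = 0.298), and DESeq2 gave an adjusted p of 0.0239.

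The outcome for *Ibsp* turned on the libraries and the method used. Its log2 fold change was 1.68 with limma-voom (adjusted p = 0.844) and 1.96 with the replicate number as a block in edgeR (adjusted p = 0.647). Without *ApoE*-/- replicate 1 the log2 fold change was 3.56 (SE 0.71, adjusted p in edgeR = 0.0374), in a fit that called 3.91% of all genes. Without *ApoE*-/- replicate 3 it was 1.89 (SE 0.93, adjusted p in edgeR = 0.564), in a fit that called 0% of 15151 genes, with 1556 at an unadjusted p under 0.05. Without both it was 2.45 (SE 0.49, adjusted p in edgeR = 0.0381). DESeq2 gave an adjusted p of 2.23e-06 without replicate 1 and of 0.395 without replicate 3.

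*Spp1*, in the same cluster as *Ibsp*, was also highest in *ApoE*-/- replicates 3 and 4. Its CPM were 239, 652, 1232 and 1526 in *ApoE*-/- and 6.65, 23.3, 82.3 and 25.7 in WT. The genotypes did not overlap, and replicate 1 was again the lowest of the *ApoE*-/- aortas. The log2 fold change was 4.73 (SE 0.91) with an adjusted p of 0.0660 by edgeR, 1.32e-08 by DESeq2 and 0.0170 by edgeR without *ApoE*-/- replicate 1, and of 0.162 by edgeR without replicate 3. *Dmp1*, another gene of the cluster, encodes a matrix protein of osteocytes and teeth. It stayed near the limit of detection, with 0.347 to 0.875 CPM in *ApoE*-/- and 0.275 to 0.718 CPM in WT. The macrophage sum given above was also higher in all 4 *ApoE*-/- aortas, and its part in the *Spp1* difference was not tested.

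*Runx2*, the master transcription factor of osteoblasts, is on chromosome 17 from 44495987 to 44814797 on the minus strand, where an antisense gene without counts here (*Runx2os1*) overlaps its exons. It was at 4.30, 5.55, 9.37 and 5.69 CPM in *ApoE*-/- and at 3.26, 3.65, 4.71 and 3.11 CPM in WT. WT replicate 3 lay above *ApoE*-/- replicate 1, and the other 3 *ApoE*-/- aortas were above all WT aortas. The log2 fold change was 0.76 (SE 0.27, 95% interval 0.14 to 1.38, adjusted p in edgeR = 0.304). It was 0.90 (SE 0.25, adjusted p in edgeR = 0.0976) without replicate 1 and 0.49 (SE 0.22, adjusted p in edgeR = 0.500) without replicate 3.

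*Sox9*, the transcription factor that specifies cartilage, is on chromosome 11 from 112782224 to 112787760. Its CPM were 2.96, 3.28, 16.1 and 2.86 in *ApoE*-/- and 2.89, 2.90, 1.22 and 1.72 in WT. Replicate 3 was 4.91-fold above the next library, and the other 3 *ApoE*-/- aortas were close to WT replicates 1 and 2. The log2 fold change of 1.52 (SE 0.65, 95% interval 0.02 to 3.02, adjusted p in edgeR = 0.427) became 0.47 (SE 0.33, adjusted p in edgeR = 0.691) without that library.

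The ligands *Bmp2* (chromosome 2, 133552159 to 133562885) and *Bmp4* (chromosome 14, 46383520 to 46390669) had the only fitted changes below 0 among the 10. *Bmp2* was at 5.07, 11.8, 12.7 and 8.38 CPM in *ApoE*-/- and at 9.91, 11.0, 13.1 and 11.0 CPM in WT. Only *ApoE*-/- replicates 1 and 4 were below the WT range, and the log2 fold change was -0.24 (SE 0.27, 95% interval -0.87 to 0.38, adjusted p in edgeR = 0.824). It was -0.03 (SE 0.18, adjusted p in edgeR = 0.956) without *ApoE*-/- replicate 1 and -0.42 (SE 0.28, adjusted p in edgeR = 0.677) without *ApoE*-/- replicate 3. *Bmp4* was at 18.2, 21.9, 19.8 and 26.4 CPM in *ApoE*-/- and at 22.0, 35.8, 21.6 and 26.2 CPM in WT. The genotypes overlapped, with WT replicate 2 above the rest, and the log2 fold change was -0.29 (SE 0.19, 95% interval -0.74 to 0.15, adjusted p in edgeR = 0.692). Without WT replicate 2 it was -0.11 (SE 0.16, adjusted p in edgeR = 0.898). The gene *Gm15217* overlaps exons of *Bmp4* on the opposite strand.

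The pair that sets pyrophosphate, *Alpl* and *Enpp1*, overlapped between the genotypes. *Alpl* (chromosome 4, 137741733 to 137796384) was at 24.2, 15.0, 26.9 and 21.3 CPM in *ApoE*-/- and at 20.0, 19.6, 19.5 and 19.3 CPM in WT, so WT aortas were nearly alike and the *ApoE*-/- aortas lay on both sides of them. Its log2 fold change was 0.16 (SE 0.17, 95% interval -0.24 to 0.55, adjusted p in edgeR = 0.817). *Enpp1* (chromosome 10, 24637914 to 24712159) was at 37.0, 77.3, 91.9 and 52.8 CPM in *ApoE*-/- and at 43.4, 56.7, 58.3 and 44.0 CPM in WT, with *ApoE*-/- replicates 2 and 3 above all WT aortas and replicate 1 below them. Its log2 fold change was 0.36 (SE 0.27, 95% interval -0.27 to 0.99, adjusted p in edgeR = 0.749). It was 0.55 (SE 0.20, adjusted p in edgeR = 0.193) without replicate 1 and 0.14 (SE 0.25, adjusted p in edgeR = 0.863) without replicate 3.

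The ratio of *Enpp1* to *Alpl* CPM within an aorta, maker against breaker of pyrophosphate, was 1.53, 5.15, 3.41 and 2.48 in *ApoE*-/- and 2.17, 2.90, 2.99 and 2.28 in WT. The means were 3.14 ± 1.55 and 2.58 ± 0.418 (SD, n = 4 each), and a two-sided exact permutation test of the log2 ratio over the 70 assignments gave p = 0.714. The *ApoE*-/- ratios lay on both sides of the WT range. Exons cover 10.3 kb in *Enpp1* and 4.03 kb in *Alpl*, so the ratio compares aortas and not the levels of the genes.

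*Mgp* (chromosome 6, 136872435 to 136875823) was the most abundant of the 10 per kilobase of exon in every aorta. Its CPM were 512, 1465, 1752 and 2068 in *ApoE*-/- and 788, 1069, 1169 and 811 in WT. *ApoE*-/- replicate 1 was the lowest of the 8 and the other 3 were the highest. The log2 fold change was 0.60 (SE 0.40, 95% interval -0.32 to 1.51, adjusted p in edgeR = 0.693), and 0.88 (SE 0.20, adjusted p in edgeR = 0.0591) without replicate 1 but 0.49 (SE 0.44, adjusted p in edgeR = 0.729) without replicate 3.

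The cartilage matrix gene *Comp* (chromosome 8, 70373558 to 70382066) resembled *Runx2* in how many *ApoE*-/- aortas lay above every WT aorta. It was at 30.6, 57.0, 89.4 and 64.1 CPM in *ApoE*-/- and at 36.2, 38.1, 54.3 and 27.5 CPM in WT, with 3 of 4 *ApoE*-/- aortas above every WT aorta. Its log2 fold change was 0.63 (SE 0.33, 95% interval -0.12 to 1.38, adjusted p in edgeR = 0.557), and 0.85 (SE 0.24, adjusted p in edgeR = 0.105) without replicate 1 but 0.37 (SE 0.31, adjusted p in edgeR = 0.718) without replicate 3. *Chad* (chromosome 11, 94565047 to 94569127) was at 2.96, 2.62, 5.01 and 2.04 CPM in *ApoE*-/- and at 3.40, 2.86, 2.83 and 3.06 CPM in WT. Replicate 3 was again the highest and replicate 4 the lowest, and the log2 fold change of 0.06 (SE 0.29, adjusted p in edgeR = 0.967) was -0.25 (SE 0.21, adjusted p in edgeR = 0.715) without replicate 3.

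With *ApoE*-/- replicate 1 left out, 4 of the 10 genes, *Runx2*, *Ibsp*, *Mgp* and *Comp*, were higher in every remaining *ApoE*-/- aorta than in every WT aorta. Of all genes, 17.3% did not overlap in one direction or the other in that setting. DESeq2 called the same 4 in that setting, against 9.18% of all genes, and none without replicate 3, against 3.27%. edgeR called *Ibsp* alone without replicate 1. Replicate 1 also had the lowest level of contractile smooth muscle genes, and what part that has in its low *Mgp*, *Comp* and *Ibsp* was not tested.

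**Figure D2:**
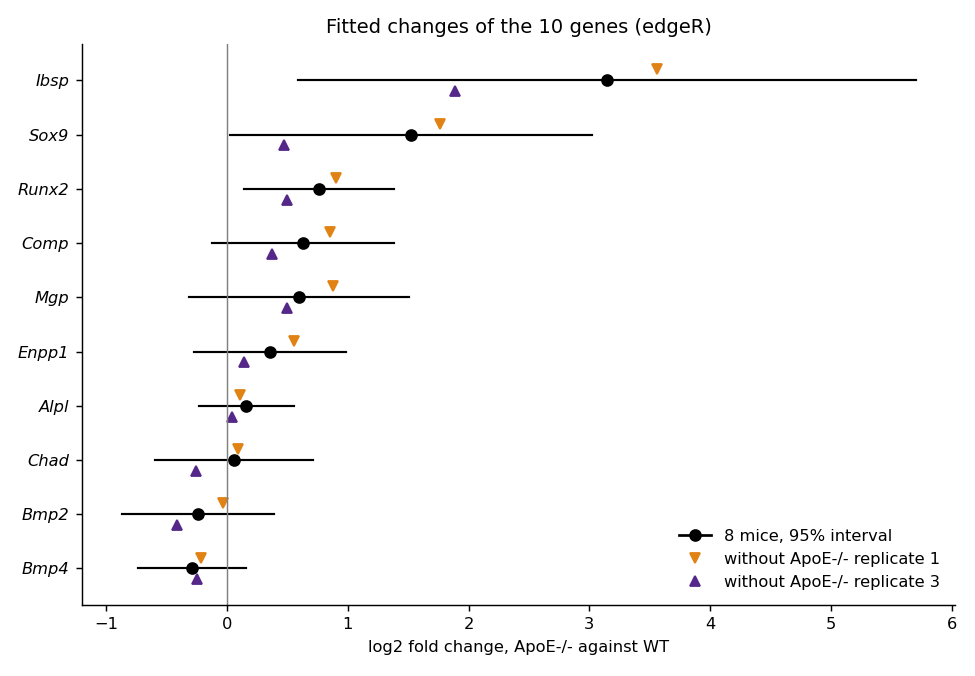
Fitted log2 fold change of each of the 10 genes, ApoE-/- against WT, with its 95% interval from 4 and 4 mice (black), and the fit without ApoE-/- replicate 1 (orange) or without replicate 3 (purple). Ibsp moves from 3.56 to 1.89 and Sox9 from 1.76 to 0.47 between the 2 settings, and 7 of the 10 intervals include 0.

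Per kilobase of exon, which allows genes to be compared within a library, the 10 spanned over 3 orders of magnitude. In WT aortas *Mgp* was at 808 ± 159 CPM per kb (SD, n = 4), and then came *Comp* at 13.2 ± 3.76, *Bmp4* at 11.7 ± 2.94, *Enpp1* at 4.93 ± 0.780, *Alpl* at 4.86 ± 0.0697, *Bmp2* at 3.16 ± 0.373 and *Chad* at 1.81 ± 0.157. The last 3 were *Sox9* at 0.528 ± 0.205, *Ibsp* at 0.436 ± 0.0857 and *Runx2* at 0.417 ± 0.0816 CPM per kb. Neighbours in this order overlapped over the 4 WT mice for *Comp* and *Bmp4*, *Enpp1* and *Alpl*, *Sox9* and *Ibsp*, and *Ibsp* and *Runx2*. By the *ApoE*-/- mean *Ibsp* moved from rank 9 to rank 6, on the strength of replicates 3 and 4, and no other member moved by more than 1 rank.

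**Figure D3:**
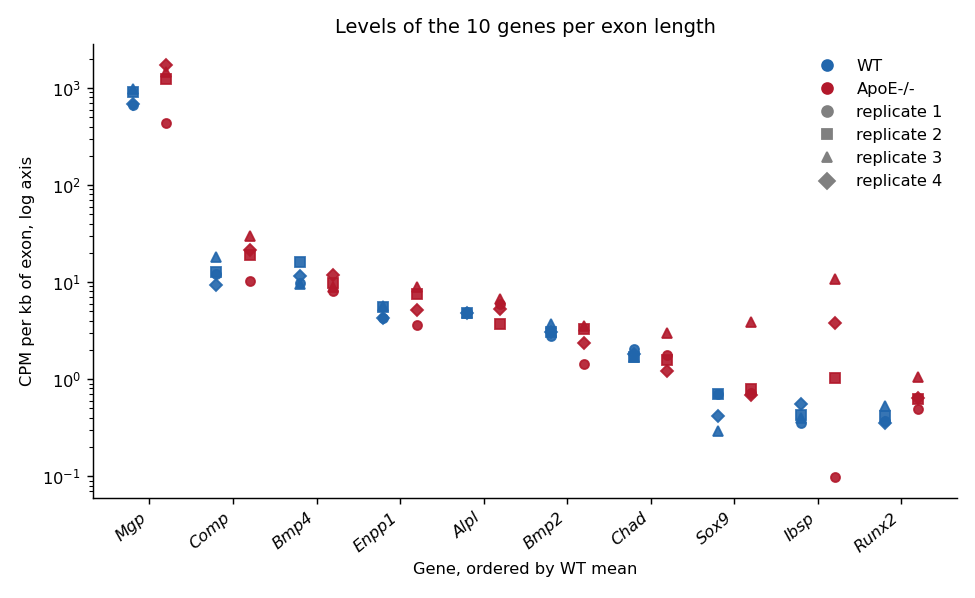
CPM per kb of exon (log axis) of the 10 genes in each of 4 WT (blue) and 4 ApoE-/- (red) aortas, ordered by the WT mean, from Mgp at 808 to Runx2 at 0.417 CPM per kb. The 4 red points of Ibsp spread the most, from 0.0981 to 10.6 CPM per kb.

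Beyond the members, 29 other genes of chondrocytes and cartilage matrix were examined, of which 23 passed the filter. None was called by edgeR or DESeq2 (0.464% and 4.29% of all genes), but DESeq2 gave no p for *Col2a1* and *Col11a2*, as for *Sox9*. In edgeR 3 had an unadjusted p under 0.05 (11.4% of all genes), and the median log2 fold change was 0.07. *Fgfr3*, a growth factor receptor of chondrocytes named after its values were seen, was the gene of the list whose genotypes did not overlap, with 20.7 to 34.8 CPM in *ApoE*-/- and 39.8 to 58.7 CPM in WT (log2 fold change -0.67, SE 0.20, adjusted p in edgeR = 0.196). *ApoE*-/- replicate 3 was the highest of the 8 libraries for 10 of the 23. *Col2a1*, the fibrillar collagen of hyaline cartilage, was at 240 CPM there and at 0.388 to 1.87 CPM in the other 7 aortas. *Acan*, the large proteoglycan of cartilage, was at 123 CPM there, at 3.90 CPM in *ApoE*-/- replicate 1 and at 14.4 to 23.9 CPM in the other 6.

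*Col11a2* and *Clec3a* were high in the same aorta, and *Matn4*, *Col11a1*, *Col9a2* and *Cnmd* were highest in *ApoE*-/- replicate 1 instead, all 6 named after their values were seen. *Col11a2*, a minor cartilage collagen, was at 50.7 CPM there and at 5.14 to 8.57 CPM elsewhere. *Clec3a*, a cartilage lectin, had 104 counts there and 0 to 2 counts in each other aorta. *Matn4*, a matrilin of the extracellular matrix, was at 15.1 CPM in replicate 1, 3.09 CPM in replicate 3 and 1.66 to 6.60 CPM in the other 6, and *Col11a1*, another minor cartilage collagen, was at 27.0, 14.2 and 2.36 to 21.3 CPM in the same order. *Col9a2* and *Cnmd* were at 2.27 and 1.38 CPM in replicate 1 and at 1.48 and 0.958 CPM in replicate 3. *Col10a1*, the collagen of hypertrophic chondrocytes, was highest in a WT aorta, with 6.53 to 11.1 CPM in *ApoE*-/- and 7.66 to 11.4 CPM in WT. Without replicate 3, the log2 fold change of *Col2a1* went from 6.61 (SE 2.22, adjusted p in edgeR = 0.269) to 0.85 (SE 0.57, adjusted p in edgeR = 0.677), and that of *Acan* from 1.25 (SE 0.84, adjusted p in edgeR = 0.695) to -0.09 (SE 0.56, adjusted p in edgeR = 0.964).

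The aorta with the highest *Sox9* also had the highest *Col2a1*, *Acan*, *Col11a2*, *Clec3a*, *Comp*, *Chad* and *Ibsp*. Markers of neighbouring tissues were measured in it too. The summed level of 8 tendon and ligament genes was 564 CPM, against 223 to 331 CPM in the other 7, and that of 9 skeletal muscle genes was 34.6 CPM, against 13.8 to 32.7 CPM. The tendon list shares a gene with the cartilage list, and replicate 3 was the highest of the 8 aortas for 4 of the 7 tendon genes tested. The sum of 8 adipocyte genes was the lowest of the 8 aortas, at 2749 CPM against 3952 to 11701 CPM, and that of cardiac muscle genes was 341 CPM, within the range of the *ApoE*-/- aortas. Their part in the cartilage genes of this aorta was not tested.

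**Figure D4:**
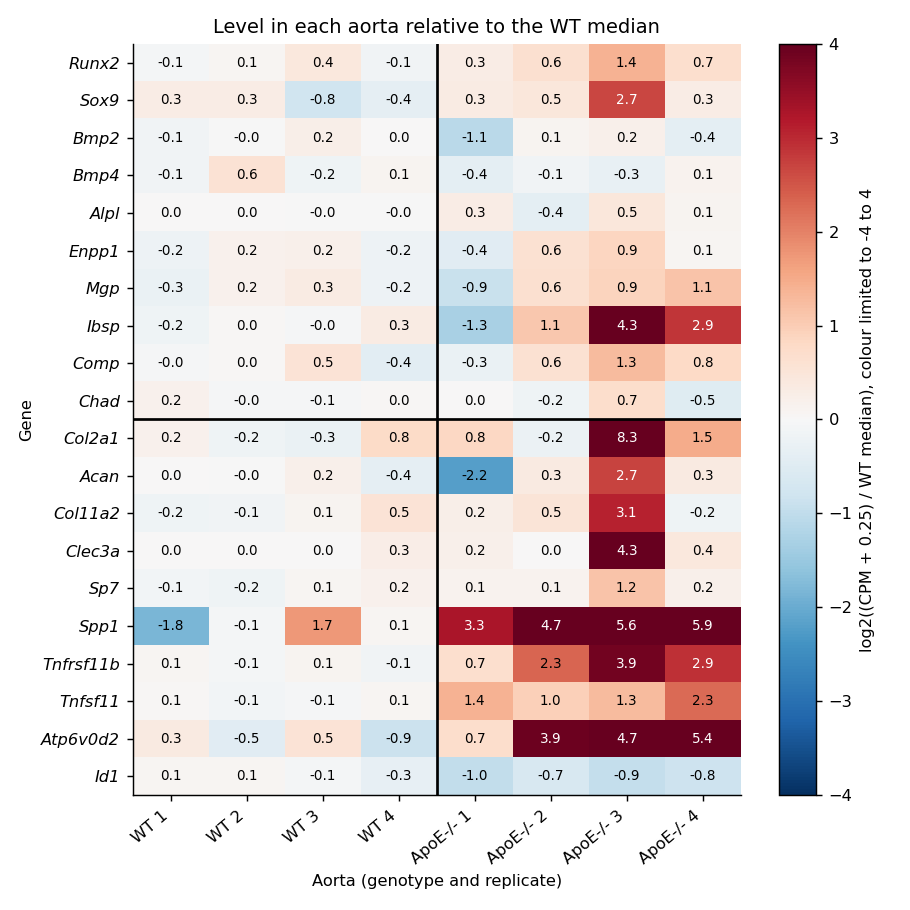
Log2 ratio of each aorta's CPM (with 0.25 added) to the WT median, for the 10 genes (above the line) and 10 other named genes (below it), with WT on the left and ApoE-/- on the right. Col2a1 reads 8.3 in ApoE-/- replicate 3 and lies within -0.3 to 1.5 in the other aortas, while Spp1 and Tnfrsf11b read above 0 in all 4 ApoE-/- aortas and Id1 reads below 0 in all 4.

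Osteoblast and bone matrix genes numbered 27, of which 21 passed the filter. None was called by edgeR (0.464% of all genes) and *Spp1* alone by DESeq2 (4.29%). In edgeR 3 had an unadjusted p under 0.05 (11.4%), and the median log2 fold change was 0.18 with 13 above 0. The list held genes at very different levels. *Bglap*, osteocalcin, had 0 to 2 counts in each aorta and *Mepe*, an osteocyte protein named after its counts were seen, had none in any. *Sost*, *Phex* and *Pth1r*, named after their values were seen, were well detected in both genotypes. *Sost*, the sclerostin gene of osteocytes, was at 22.7 to 217 CPM in *ApoE*-/- and 59.0 to 170 CPM in WT, *Phex* at 4.14 to 11.8 and 4.69 to 7.70 CPM, and *Pth1r*, the receptor of parathyroid hormone, at 16.0 to 22.7 and 19.0 to 25.8 CPM. *Sp7*, the transcription factor downstream of *Runx2* in bone, was at 0.690, 0.700, 1.66 and 0.738 CPM in *ApoE*-/- and 0.515 to 0.718 CPM in WT. *Col1a1*, the main collagen of bone but also of fibroblasts, was at 604, 1055, 2538 and 1382 CPM in *ApoE*-/- and at 481 to 736 CPM in WT, a log2 fold change of 1.23 (SE 0.41, adjusted p in edgeR = 0.264) that became 1.49 (SE 0.31, adjusted p in edgeR = 0.0439) without replicate 1 and 0.77 (SE 0.30, adjusted p in edgeR = 0.438) without replicate 3. The sum of 10 fibroblast genes, which include *Col1a1* itself, was 3837 to 9337 CPM in *ApoE*-/- and 3593 to 4067 CPM in WT. The part of fibroblasts was not tested.

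Of 21 inhibitors of mineralization and genes of phosphate and pyrophosphate handling, 18 passed the filter, none was called by edgeR (0.464% of all genes), and 4 had an unadjusted p under 0.05 (11.4%). DESeq2 called 1 of these 18, *Tnfrsf11b* (4.29%). The median log2 fold change was 0.31, with 15 of 18 above 0. *Tnfrsf11b*, osteoprotegerin, the decoy receptor of RANK ligand, had the largest difference of the 18, with 22.7, 72.3, 209 and 109 CPM in *ApoE*-/- and 14.9, 13.4, 15.2 and 12.8 CPM in WT. The genotypes did not overlap and WT aortas differed little among themselves. Its log2 fold change was 2.88 (SE 0.58), with an adjusted p of 0.0748 by edgeR, 1.2e-05 by DESeq2 and 0.00621 by edgeR without *ApoE*-/- replicate 1. Without replicate 3, its highest aorta, it was 2.27 (SE 0.46, adjusted p in edgeR = 0.155).

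The pyrophosphate transporter *Ank* was at 74.3, 87.8, 115 and 85.0 CPM in *ApoE*-/- and at 69.6, 66.1, 62.4 and 61.5 CPM in WT, again without overlap (log2 fold change 0.48, SE 0.14, adjusted p in edgeR = 0.190). *Nt5e*, which makes adenosine from AMP, was at 18.3, 39.6, 28.8 and 30.1 CPM against 13.9 to 19.6 CPM in WT (log2 fold change 0.76, SE 0.23, adjusted p in edgeR = 0.210). The phosphate transporter *Slc20a1* had a log2 fold change of 0.30 (SE 0.18, adjusted p in edgeR = 0.656) and *Gas6*, a vitamin K-dependent ligand that protects smooth muscle, of 0.58 (SE 0.23, adjusted p in edgeR = 0.377). Without replicate 1, *Nt5e* and *Gas6* passed in edgeR, at adjusted p of 0.0243 and 0.0234 in a fit that called 3.91% of all genes, and without replicate 3 their adjusted p were 0.355 and 0.584.

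The other 3 genes of this list were below the filter. *Abcc6*, a transporter mostly of the liver whose loss causes ectopic calcification, had 6 to 17 counts in *ApoE*-/- and 7 to 12 in WT. *Fgf23*, the phosphate hormone of bone, is named here after its values were seen. It had 10, 13, 12 and 6 counts in *ApoE*-/- and 0, 0, 0 and 1 in WT, and DESeq2, which tested it, gave an adjusted p of 0.00295. An edgeR fit with no filter gave an adjusted p of 0.0521.

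Among 34 other genes of BMP signalling, 32 passed the filter, 6 had an unadjusted p under 0.05 (11.4% of all genes), and edgeR called 1, which fell (0.464%). DESeq2 called 2 lower (4.29%). The gene called by edgeR was *Id1*, a direct transcriptional target of BMP signalling, at 53.2, 67.1, 54.7 and 59.8 CPM in *ApoE*-/- and 111, 112, 100 and 84.2 CPM in WT. The genotypes did not overlap and both were tight, with a log2 fold change of -0.79 (SE 0.13, adjusted p in edgeR = 0.0462; DESeq2 adjusted p = 1.11e-05). The fold change ranged from -0.88 to -0.68 over 17 alternatives, but the adjusted p was close to the threshold and no longer under it in 12 of the 17, reaching 0.170 in edgeR without WT replicate 3 and 0.136 without *ApoE*-/- replicate 3. *Id3*, a related target, had a log2 fold change of -0.35 (SE 0.16, adjusted p in edgeR = 0.492).

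*Eng*, an endothelial co-receptor of BMP9 and BMP10, was called lower by DESeq2 and not by edgeR (log2 fold change -0.56, SE 0.16, adjusted p = 0.169 by edgeR and 0.0229 by DESeq2), though edgeR without *ApoE*-/- replicates 1 and 3 also called it (adjusted p = 0.0381). The inhibitory *Smad6*, another target of the pathway, did not overlap between genotypes, with 28.5 to 41.5 CPM in *ApoE*-/- and 45.3 to 59.9 CPM in WT (log2 fold change -0.43, SE 0.15, adjusted p in edgeR = 0.282). The receptor *Bmpr2* had a log2 fold change of -0.03 (SE 0.16, adjusted p in edgeR = 0.965) and the antagonist *Grem1* one of 1.01 (SE 0.40, adjusted p in edgeR = 0.377). Of the 32 log2 fold changes 21 were below 0, with a median of -0.06, while 6330 of the 15077 genes tested were below 0, with a median of 0.05.

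The last list held RANK ligand and 14 genes of osteoclasts, the cells that resorb mineral, many of which are also expressed in macrophages. Of the 15, 10 passed the filter, none was called by edgeR (0.464% of all genes), 3 had an unadjusted p under 0.05 (11.4%), and DESeq2 called 2 (4.29%). *Tnfsf11*, RANK ligand itself, had 18, 11, 15 and 36 counts in *ApoE*-/- and 3, 2, 2 and 3 in WT, which is low, and the genotypes did not overlap (log2 fold change 2.76, SE 0.47, adjusted p = 0.0526 by edgeR, 0.00293 by DESeq2 and 0.0289 by edgeR without *ApoE*-/- replicate 1, and 0.118 without replicate 3). *Atp6v0d2*, a proton pump subunit of osteoclasts and macrophages, was at 1.79, 18.5, 31.4 and 51.0 CPM in *ApoE*-/- and at 0.431 to 1.55 CPM in WT (log2 fold change 4.69, SE 0.95, adjusted p = 0.0753 by edgeR, 3.63e-07 by DESeq2 and 0.00595 by edgeR without *ApoE*-/- replicate 1, and 0.183 without replicate 3).

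The enzymes of resorption were less separated. *Acp5*, tartrate-resistant acid phosphatase, was at 41.9 to 119 CPM in *ApoE*-/- and 34.6 to 79.9 CPM in WT (log2 fold change 0.49, SE 0.39, adjusted p in edgeR = 0.757). *Ctsk*, cathepsin K, was at 19.0, 40.4, 27.7 and 79.0 CPM in *ApoE*-/- and 16.8 to 21.5 CPM in WT (log2 fold change 1.08, SE 0.40, adjusted p in edgeR = 0.330). *Dcstamp*, needed for the fusion of osteoclasts and chosen after its values were seen, had 2, 7, 78 and 15 counts in *ApoE*-/- and 1 to 4 in WT, below the filter. *Atp6v0d2* and *Ctsk* were highest in *ApoE*-/- replicate 4, which also had the highest macrophage sum (2682 CPM), and *Dcstamp* in replicate 3. The part of macrophages was not tested.

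**Figure D5:**
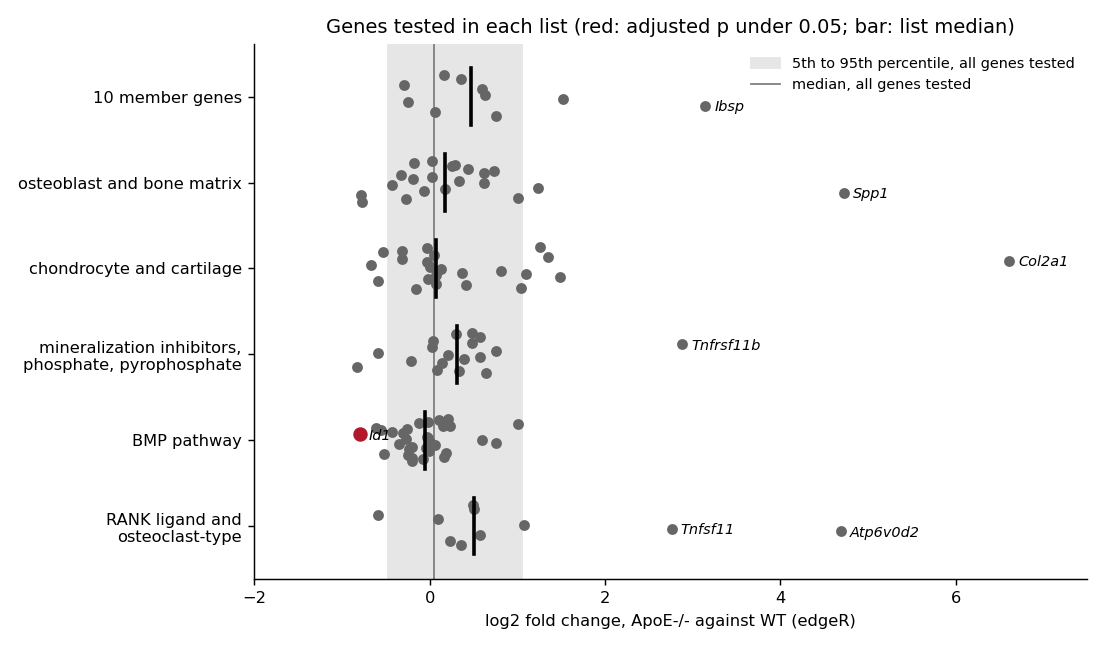
Log2 fold change (ApoE-/- against WT, edgeR) of every gene tested in the 10-gene set and in 5 further lists, with the list median as a black bar and, in grey, the 5th to 95th percentile and the median (0.05) of all 15077 genes tested. The single red point, Id1 at -0.79, is the gene with an adjusted p under 0.05, and Col2a1, Spp1, Atp6v0d2, Ibsp, Tnfrsf11b and Tnfsf11 lie above 2.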

How the data were processed

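Total RNA of 4 *ApoE*-/- and 4 WT aortas had been made into stranded, ribodepleted paired-end libraries, 1 per mouse. The authors deposited, for each gene, unnormalized counts of the pairs assigned to it. The submitters' processing notes name TopHat2, HTSeq, GRCm38 and mm10, and their versions and the annotation are not given in the sources used here. Rows that name no gene, 64.4% to 67.7% of pairs in *ApoE*-/- and 69.8% to 72.1% in WT, were left out of library sizes. Groups and replicate numbers came from the sample labels.

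In R 4.3.3, edgeR 4.0.16 filtered genes (filterByExpr), scaled libraries (TMM) and compared genotypes with the robust quasi-likelihood test, two-sided, with Benjamini-Hochberg adjustment over 15077 genes and a threshold of 0.05. The SE is the log2 fold change divided by the square root of F. The test was repeated with DESeq2 1.42.0, which the study used, with limma-voom (limma 3.58.1), with 2 other scalings and 2 other filters, without robust estimation, with a block for replicate number, and without single mice. The steps were tested on simulated data.

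The 10 genes and the gene lists were chosen with earlier results of these data known. Named were the 10 genes, *Apoe*, 21 further genes fixed by symbol, and from each pathway list at most 8 genes called by edgeR or DESeq2. Other genes were named after their values were seen, as the text says at each. Of the gene identifiers, 21817 matched GENCODE M21 (GRCm38), which gave positions and exon lengths, and 42 did not. Promoter windows are RefSeq's. Intervals and p-values cover the spread between these 8 mice.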

Additional observations from a re-analysis of the deposited data

Results flagged for a closer look

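In groups of 4, a highest or lowest aorta was called far from the rest when its gap to the nearest, divided by the group's range, was above Dixon's 95% critical value. Of 108 groups of values examined 13 passed. Chance alone passes about 1 in 20 groups, but 4 of the 13 belong to *Clec3a*, *Col11a2* and *Fgf23*, which were added after their values were seen, so the number is not compared with chance.

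In *ApoE*-/- replicate 3 this held for *Sox9* (0.969), *Sp7* (0.950), *Acan* (0.833), *Col2a1* (0.994), *Col11a2* (0.928), *Clec3a* (0.981) and the sum of the tendon and ligament genes (0.862), with that aorta the highest each time. For *Sox9* the level there was 16.1 CPM, against 2.86 to 3.28 CPM in the other 3. In *ApoE*-/- replicate 4 the cardiac muscle sum was the lowest, at 160 CPM against 335 to 342 CPM (0.961).

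In WT, *Col10a1* was highest in replicate 3, at 11.4 CPM (0.958), and *Smad6* in replicate 2, at 59.9 CPM (0.877). *Bglap*, *Clec3a* and *Fgf23* each had 1 count in WT replicate 4 and 0 in the other 3, which gives a ratio of 1.0 from a single count.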

How the results depend on the processing

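Over the alternatives, 34 named genes gave 593 values. Of these, 536 kept their direction and, where an adjusted p was given, their side of the threshold. A further 28 newly passed it, 15 no longer passed it and 14 changed sign. The 70 edgeR calls over all genes became 721 with DESeq2, 29 with limma-voom, 2 with the replicate block and 0 to 593 with 1 mouse left out. Nothing in the labels pairs the mice by replicate number. Deviations of same-numbered libraries correlated at 0.06, -0.45, 0.32 and 0.16, and only *ApoE*-/- replicate 3 matched its own number best. With 4 mice a group these values cannot decide whether the numbers pair the mice. No member was called with the block. Leaving out *ApoE*-/- replicates 1 and 3 together and DESeq2 without 1 of them were chosen after seeing the data, and the former called 822 genes, 5.38% of those tested, against 3.91% without replicate 1 alone.

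Called members were 0, but 1 with DESeq2, 0 to 1 with 1 mouse left out, 1 without both replicates, and 4 with DESeq2 without replicate 1. Members without overlap were 0 to 4 with 1 mouse left out. Calls in the osteoblast list were 1 with DESeq2, 0 to 4 with 1 mouse left out and 2 without both replicates. In the cartilage list 1 was called without both. In the mineralization list they were 2 (DESeq2), 0 to 3 (1 mouse left out) and 3 (without both), and in the osteoclast list 2, 0 to 2 and 3. The 1 call of the BMP list became 2 with DESeq2 and without both replicates, 0 to 1 with 1 mouse left out, and 0 with limma-voom, upper-quartile factors, no filter, at least 10 counts in every mouse, and the block. Each highest count with 1 mouse left out came without *ApoE*-/- replicate 1.

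Signs changed for *Alpl* (-0.11 without both replicates), *Chad* (-0.024 with limma-voom, -0.020 with the block, -0.38 without both, -0.27 with DESeq2 without replicate 3 and -0.25 to 0.22 with 1 mouse left out), *Acan* (-0.091 to 1.64 with 1 mouse left out), *Col10a1* (-0.15 to 0.16), *Bmpr2* (-0.11 to 0.046) and *Slc20a1* (-0.036 without both). DESeq2's size factors moved the median of all genes by -0.01 and upper-quartile factors by -0.04, and neither changed the sign of a member.

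Genes under about 1 CPM (*Dmp1*, *Sp7*, *Tnfsf11*) or below the filter (*Bglap*, *Fgf23*, *Clec3a*, *Dcstamp*) rest on few counts, and 4 mice a group with the spread seen in *ApoE*-/- leave wide intervals.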
